A study of Mus musculus with 6 samples.

Results

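The 10 genes described here carry sodium, chloride and water across the colon epithelium or set how that transport answers to steroid hormones. They are the epithelial sodium channel subunits Scnn1a, Scnn1b and Scnn1g, the hormone-inactivating enzyme Hsd11b2, the exchangers Slc9a2, Slc9a3 and Slc26a3, the proton pump Atp12a, the sodium pump regulator Fxyd4 and the water channel Aqp8. They were taken by gene symbol from the 19031 genes named on the array, with all of their 18 probes, and every one of the 10 was measured above background. Of the 18 probes, 17 lay above background on at least 3 of the 6 arrays.

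Surface cells of the colon take salt and water back from the gut contents. In the distal colon sodium enters through the epithelial sodium channel, which aldosterone raises through the mineralocorticoid receptor, and elsewhere sodium/hydrogen exchange is coupled to chloride/bicarbonate exchange so that both ions are absorbed together. The sodium pump then moves sodium out to the blood side, and water follows.

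RNA came from colon mucosa of C57/B6 mice aged 5 months. The 3 Dnmt3a-deleted mice were APC(Min/+), Dnmt3a(2lox/2lox) and Fabpl(4x at -132)-Cre(-/+), and the 3 control mice were APC(Min/+), Dnmt3a(2lox/2lox) and Fabpl(4x at -132)-Cre(-/-). All 6 mice, controls included, thus had 1 Min allele of the tumour suppressor gene Apc, which makes mice prone to tumours of the gut, and both copies of Dnmt3a, which encodes a DNA methyltransferase, were floxed. The Cre transgene, driven by a fatty acid binding protein promoter, removed Dnmt3a from 30 to 50% of mucosa cells per the study's design text, so the samples of the deleted mice still held cells with the gene. Each sample was a different animal. The question was what loss of Dnmt3a does to expression in this tissue.

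Expression was read on Illumina bead arrays with 1 label, and every level below is a log2 normalized intensity for 1 probe, which can be compared between mice but not between probes. The 3 Dnmt3a probes were not above background on any array, so they do not check the deletion. Mean signal was 353, 368 and 285 in Dnmt3a-deleted replicates 1 to 3, against 365, 360 and 379 in control replicates 1 to 3. Dnmt3a-deleted replicate 3 stood apart: it correlated with the other arrays at 0.925 to 0.9496, and the others with each other at 0.978 or more. Its summed level of 15 measured surface colonocyte markers was 53229 in linear intensity, against 100508 and 100949 in the other deleted mice and 90769 to 100965 in the controls. The surface marker Krt20, at 12.47 to 13.26, and the goblet cell marker Muc2, at 14.20 to 14.45, were bright on every array. In such bulk samples, fewer cells of a type and less RNA per cell cannot be told apart.

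Between the groups, 0 of the 10 genes passed an adjusted p under 0.05 in the limma fit over 11370 genes, in which 1 gene passed (0.0088%), and 0 of their 17 kept probes passed in the fit over 21183 probes, in which 1 passed (0.00472%). Of those 17 probes 2 reached an unadjusted p under 0.05, against 4.92% of all probes. At an unadjusted p under 0.05 there was 1 of the 10, Slc26a3, against 597 genes in all (5.25%), and no other tool was run. Groups overlapped in all 10 genes, while they did not overlap in 14.5% of all genes. The median difference, Dnmt3a-deleted minus control, was -0.02 over the 10 genes and 0.06 over all genes. Spread among mice of 1 genotype was wide: over the 3 deleted mice the median SD of the 10 genes was 0.538, against 0.267 over all genes, and over the 3 control mice 0.722, against 0.177. The SD was over 1 in controls for 4 of the 10 genes, and for 0.836% of all genes. It was larger in controls than in deleted mice for 6 of the 10, and for 33.4% of all genes.

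**Figure D1:**
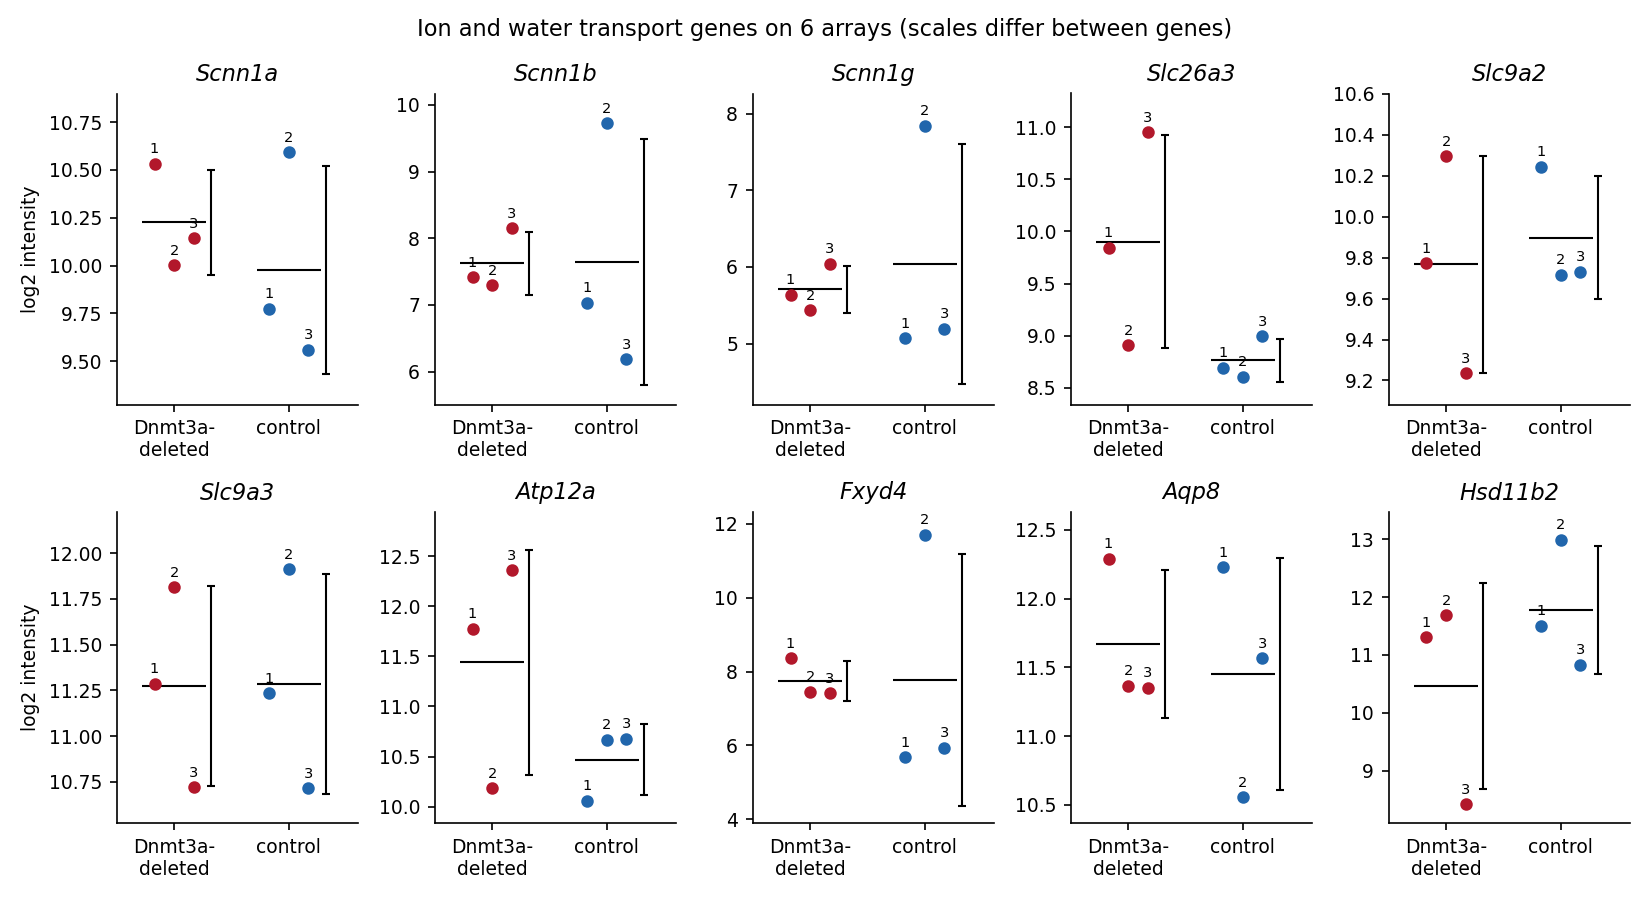
Log2 normalized intensity of each of the 10 genes in each mouse, Dnmt3a-deleted mice (red) left of controls (blue), numbered by replicate, with horizontal lines at group means and bars of 1 SD either side (n = 3). Control replicate 2 stands above the other 5 mice for Fxyd4, Scnn1b, Scnn1g and Hsd11b2, and the deleted mice lie between the controls for Scnn1b, Scnn1g and Fxyd4.

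The promoters of Scnn1b and Scnn1g are shown because both genes were high in the same control mouse, and they were chosen after those values were seen. Each run is the part of the 250 bases before the start listed in RefSeq (build GRCm38.p6) that lies outside the gene, 5′ to 3′, with every CpG, the site that Dnmt3a can methylate, in capitals. It is 250 bases for Scnn1b, at chr7:121864788-121865037 on the plus strand, and 191 bases for Scnn1g, at chr7:121734229-121734419 on the plus strand, since the last 59 bases of that window lie within the gene.
Scnn1b: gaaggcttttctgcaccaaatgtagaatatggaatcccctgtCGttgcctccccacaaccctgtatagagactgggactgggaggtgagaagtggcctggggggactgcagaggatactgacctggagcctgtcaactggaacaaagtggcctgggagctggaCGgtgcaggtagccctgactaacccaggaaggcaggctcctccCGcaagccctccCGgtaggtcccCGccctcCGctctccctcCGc
Scnn1g: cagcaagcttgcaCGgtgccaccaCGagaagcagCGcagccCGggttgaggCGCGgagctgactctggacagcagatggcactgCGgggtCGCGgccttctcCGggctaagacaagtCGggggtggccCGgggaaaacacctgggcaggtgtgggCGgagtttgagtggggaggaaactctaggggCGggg
The printed runs hold 7 CpG for Scnn1b and 14 for Scnn1g. Over the whole window of 250 bases Scnn1g held 16, Scnn1b 7 and Fxyd4 3, and of 32851 windows of that length 25.4% held at least 16, 46.3% at least 7 and 71.0% at least 3, with a median of 6. The window of Fxyd4, like those of Slc9a3 and Slc26a3, lies wholly within the full span of its gene and is not printed. DNA methylation was not measured. Of the 6 genes with such an entry, Slc9a3 held 19, Aqp8 5 and Slc26a3 1. The 6-base motif AGAACA, which is 1 arm of the steroid receptor element, was sought on both strands, with its complement TGTTCT, in the 300 bases around each listed start, 250 before and 50 after. It was found in 1 of the 6, Slc26a3, and in 19.0% of all 32851.

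The epithelial sodium channel is built from alpha, beta and gamma subunits, and its beta and gamma subunits are those that aldosterone raises in the colon of rodents. Scnn1b, the beta subunit, stood at 7.42, 7.29 and 8.15 in Dnmt3a-deleted replicates 1 to 3, against 7.03, 9.72 and 6.19 in control replicates 1 to 3. Control replicate 2 was the highest mouse and control replicate 3 the lowest, and the deleted mice lay between them. The means were 7.62 ± 0.47 in deleted mice and 7.65 ± 1.85 in controls (SD, n = 3 each), a difference of -0.03 ± 0.80 (SE, limma adjusted p 0.991) with a 95% interval of -1.88 to 1.83.

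Scnn1g, the gamma subunit, stood at 5.64, 5.44 and 6.04 in deleted mice, against 5.07, 7.85 and 5.20 in controls. Control replicate 2 was again the highest mouse, control replicate 1 was not above background, and the groups overlapped. The difference was -0.33 ± 0.68 (SE, limma adjusted p 0.864), with an interval of -1.90 to 1.23. Scnn1a, the alpha subunit, stood at 10.53, 10.001 and 10.14 in deleted mice, against 9.77, 10.59 and 9.56 in controls. Control replicate 2 was the highest mouse by only 0.06, and the controls spread by 1.03 where those of Scnn1b spread by 3.54. The difference of Scnn1a was 0.25 ± 0.29 (SE, limma adjusted p 0.767), with an interval of -0.42 to 0.92. It was 0.097 without Dnmt3a-deleted replicate 1, 0.15 without control replicate 1, 0.56 without control replicate 2 and 0.043 without control replicate 3.

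Fxyd4, also called CHIF, is a small membrane protein that raises the affinity of the sodium pump for sodium, and corticosteroids raise its level in rat colon. It stood at 8.37, 7.46 and 7.41 in deleted mice, against 5.67, 11.70 and 5.94 in controls. Control replicate 2 lay 3.34 above the next mouse, Dnmt3a-deleted replicate 1, which is 10.1-fold, and all 3 deleted mice lay above the other 2 controls. The control SD of 3.41 ranked 1 of 11370 genes. The means were 7.74 ± 0.54 in deleted mice and 7.77 ± 3.41 in controls (SD, n = 3 each), with a difference of -0.03 ± 1.44 (SE, limma adjusted p 0.995) and an interval of -3.35 to 3.30. A second probe of Fxyd4 gave 7.60, 6.26 and 6.45 in deleted mice, against 5.12, 10.99 and 5.73 in controls, where 5.12 was not above background. Both probes ordered control replicate 2 first and the other controls last.

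Hsd11b2 converts active glucocorticoids to inactive forms and so keeps the mineralocorticoid receptor free for aldosterone. It stood at 11.30, 11.68 and 8.42 in deleted mice, against 11.51, 12.99 and 10.83 in controls. Control replicate 2 was the highest mouse by 1.31 and Dnmt3a-deleted replicate 3 the lowest by 2.41, and the groups overlapped. The means were 10.47 ± 1.79 in deleted mice and 11.78 ± 1.11 in controls (SD, n = 3 each), and the difference was -1.31 ± 0.88 (SE, limma adjusted p 0.700), with an interval of -3.35 to 0.73. Without Dnmt3a-deleted replicate 3 it was -0.28. The second probe gave 10.97, 10.96 and 9.81 in deleted mice, against 10.66, 12.27 and 9.86 in controls, and a difference of -0.35 ± 0.60 (SE, limma adjusted p 0.842). The probes share the high level of control replicate 2, but the second places Dnmt3a-deleted replicate 3 only 0.050 below the next mouse.

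**Figure D2:**
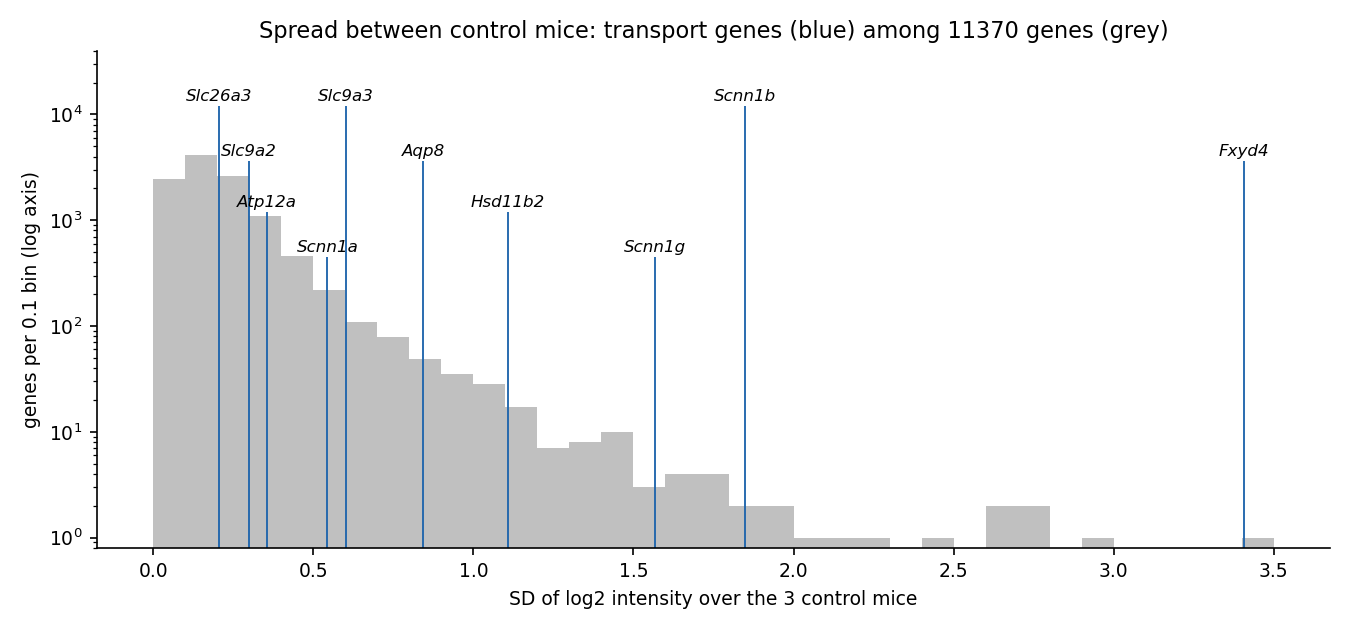
Histogram of the SD of log2 intensity over the 3 control mice for all 11370 genes, with a log axis for the number of genes and a line for each of the 10 genes. Fxyd4 lies at 3.41 at the far right, Scnn1b at 1.85, Scnn1g at 1.57 and Hsd11b2 at 1.11, and Slc26a3, at 0.206, lies among the bulk of genes.

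Control replicate 2 carried much of this spread. By rank of control SD among 11370 genes, Fxyd4 was 1, Scnn1b 13, Scnn1g 25, Hsd11b2 64 and Aqp8 160, while Slc26a3 was 4573. Control replicate 2 was the highest of the 6 mice in 6 of the 10 genes, against 12.9% of all genes. It was the highest by over 1 log2 unit in 4 of the 10, Fxyd4, Scnn1g, Scnn1b and Hsd11b2, against 27 of all genes (0.237%). Its lead in Scnn1g was 1.80, which is 3.48-fold, in Scnn1b 1.57, which is 2.97-fold, and in Hsd11b2 1.31, which is 2.48-fold. Without that mouse the median control SD, then over 2 mice, was 0.365 for the 10 genes and 0.143 for all genes. The 23 other genes among the 27 were looked at after their values were seen. They include Sgk1, the kinase that keeps the sodium channel at the cell surface, and Fkbp5, a glucocorticoid-induced chaperone. Sgk1 stood at 11.34, 11.77 and 11.24 in deleted mice, against 11.94, 13.15 and 11.16 in controls. Fkbp5 stood at 8.85, 9.79 and 7.72 in deleted mice, against 9.39, 10.96 and 8.48 in controls. That control replicate 2 was highest for both was fixed by how the 27 genes were selected. Of the full list of 16 genes that respond to mineralocorticoids or control the sodium channel, control replicate 2 was highest in 4, and the steroid-induced genes Tsc22d3 and Per1 were highest in Dnmt3a-deleted replicate 3 and control replicate 3. The part of steroid hormones in the levels of the transport genes was not tested. The same 27 hold the anion channel Best2 and the granulocyte genes S100a8, S100a9 and Retnlg.

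Of 10 listed markers of granulocytes and macrophages, 7 were measured, and control replicate 2 was the highest mouse in 3 of them, S100a8, S100a9 and Tyrobp. Their summed linear intensity was 1220 to 2308 in deleted mice, against 1888 to 7149 in controls, with 7149 in control replicate 2. S100a8 and S100a9, at 12.05 and 10.36, were the brightest of the 7 in that mouse. Both were already among the 27 genes named above, so the sum is not separate from their levels. Adgre1 and Itgam, which mark macrophages and other myeloid cells, were above background on fewer than 3 arrays. The macrophage gene Csf1r was highest in Dnmt3a-deleted replicate 1, as was Cd14, and Lyz2 and Fcer1g were highest in control replicate 3. S100a8, a granulocyte protein, stood at 8.40, 5.35 and 7.02 in deleted mice, against 9.47, 12.05 and 6.54 in controls. The part of these cells in the levels of the transport genes was not tested. Xist and Eif2s3y placed control replicates 2 and 3 and Dnmt3a-deleted replicate 3 as females. Dnmt3a-deleted replicate 3 stood at 8.15 for Scnn1b, 6.04 for Scnn1g and 7.41 for Fxyd4, and control replicate 3 at 6.19, 5.20 and 5.94. With sex as a term the difference between the groups was 0.26 for Scnn1b, -0.0057 for Scnn1g and 0.41 for Fxyd4. The part of sex in the levels of control replicate 2 was not tested.

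Without control replicate 2, the deleted mice were above the remaining 2 controls without overlap in 4 of the 10 genes, Scnn1a, Scnn1b, Scnn1g and Fxyd4, against 16.9% of all genes. The differences were then 0.56, 1.01, 0.57 and 1.94, with unadjusted p values in the limma fit of 0.0471, 0.0279, 0.0480 and 0.000740. Such p values were reached by 4 of the 10 genes and by 413 of all genes (3.63%). None passed adjustment over all genes (adjusted p 0.805 for each of the 4), and 0 genes passed in that fit. The second probe of Fxyd4 gave 1.34 there (limma adjusted p 0.837). Control replicate 2 was the highest mouse for Scnn1a, Scnn1b, Scnn1g and Fxyd4, so leaving it out had to raise their differences. It was the highest mouse in only 12.9% of all genes. The comparisons with 16.9% and 3.63% of all genes therefore cannot show an effect of the deletion on these 4 genes. For Scnn1b, Scnn1g and Fxyd4 the sign of the difference thus turned when 1 control mouse was left out. Those of Scnn1b and Fxyd4, near 0 with all mice, also turned without Dnmt3a-deleted replicate 2 (0.14 and 0.12), that of Scnn1b without Dnmt3a-deleted replicate 1 (0.076) and that of Fxyd4 without Dnmt3a-deleted replicate 3 (0.14).

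Slc26a3, also called DRA, is the chloride/bicarbonate exchanger of the surface cells. It stood at 9.84, 8.91 and 10.95 in deleted mice, against 8.69, 8.61 and 8.997 in controls. The deleted mice were spread over 2.04 and the controls over 0.39, and Dnmt3a-deleted replicate 2 lay below control replicate 3. The means were 9.90 ± 1.02 in deleted mice and 8.76 ± 0.21 in controls (SD, n = 3 each), a 2.20-fold ratio. The difference was 1.14 ± 0.45 (SE, unadjusted p 0.0377, limma adjusted p 0.700), with an interval of 0.08 to 2.19, and 0.61 without Dnmt3a-deleted replicate 3. This probe was designed on a cDNA clone record. A second clone probe, above background on 4 arrays, differed by 0.11, and the probe for the RefSeq transcript was above background on 2 of 6 arrays and was not tested. The difference thus rests on 1 of 3 probes.

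Atp12a, the proton/potassium pump of the colon surface that takes up potassium, stood at 11.78, 10.19 and 12.36 in deleted mice, against 10.06, 10.67 and 10.68 in controls. Dnmt3a-deleted replicates 3 and 1 were the highest mice, in that order as for Slc26a3, and replicate 2 lay among the controls. The means were 11.44 ± 1.12 in deleted mice and 10.47 ± 0.35 in controls (SD, n = 3 each). The difference was 0.97 ± 0.51 (SE, unadjusted p 0.0933, limma adjusted p 0.700), with an interval of -0.21 to 2.15, and it was 0.51 without Dnmt3a-deleted replicate 3 and 1.598 without Dnmt3a-deleted replicate 2. Of 7 measured genes of the proximal colon, 6 were lower in the same 2 mice than in any other mouse. The exception was Hoxa5, at 8.44, 7.85 and 8.78 in deleted mice, against 7.89, 8.20 and 8.55 in controls. The share of all genes that were lowest in the same 2 mice was not counted, so the 6 of 7 has no background to be read against. The 2 mice were picked by their Atp12a and Slc26a3 levels. Dnmt3a-deleted replicate 3 alone was the lowest mouse in 3117 of all 11370 genes. Over these 7 of 8 listed genes, the mean log2 deviation from the average of all mice was -0.88, 0.34 and -1.26 in deleted mice, against 0.92, 0.46 and 0.43 in controls, and the summed linear intensity was 1410 to 13091 in deleted mice, against 8463 to 17344 in controls. Over 7 of 10 distal colon genes the summed intensity was 476, 306 and 541 in deleted mice, against 336, 445 and 523 in controls. Their mean log2 deviation was 0.15, -0.41 and 0.14 in deleted mice, against -0.26, 0.09 and 0.28 in controls. Several of these distal genes were dim, such as Hoxd12, at 4.79 to 5.66, and Hoxb13, at 5.12 to 5.90. The part of position along the colon in these values was not tested.

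**Figure D3:**
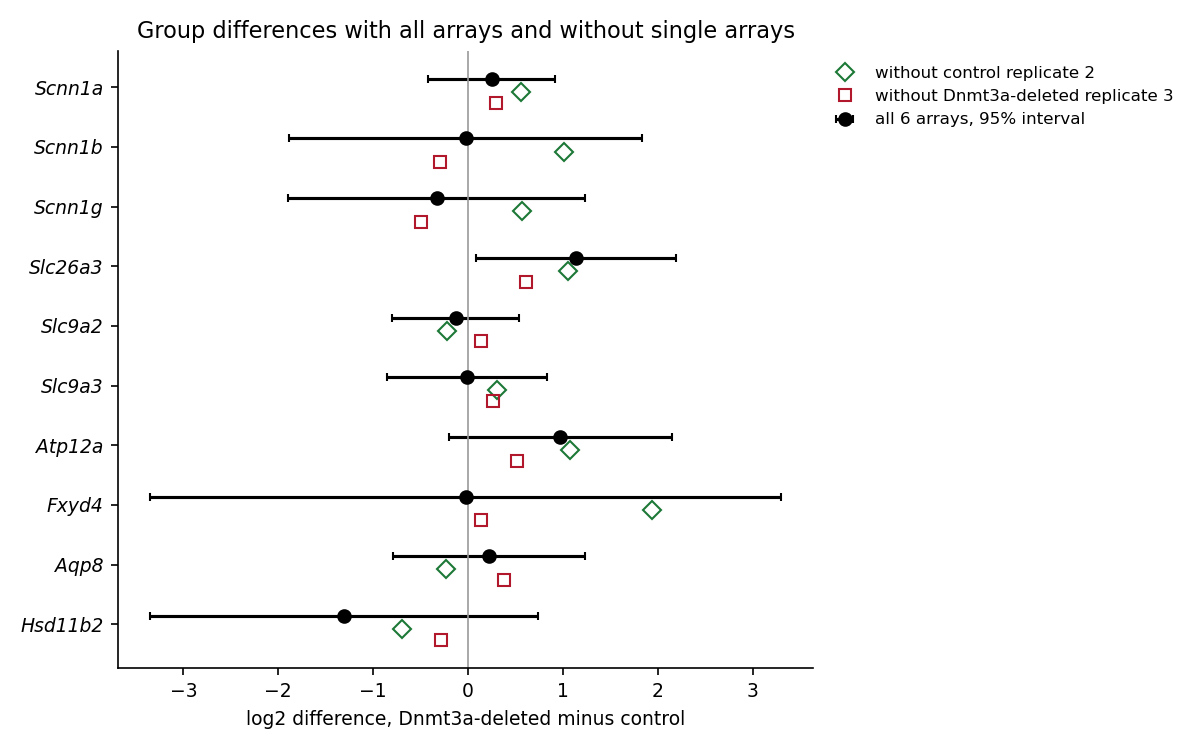
Difference in log2 intensity, Dnmt3a-deleted minus control, for each of the 10 genes: over all 6 mice with its 95% interval from the limma fit (black), without control replicate 2 (diamonds) and without Dnmt3a-deleted replicate 3 (squares). Among the 10 intervals only that of Slc26a3, 0.08 to 2.19, lies on 1 side of 0, and Fxyd4 lies at -0.03 with all mice and at 1.94 without control replicate 2.

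Slc9a3, or NHE3, and Slc9a2, or NHE2, are the sodium/hydrogen exchangers of the apical membrane. Slc9a3 stood at 11.29, 11.81 and 10.72 in deleted mice, against 11.23, 11.91 and 10.71 in controls. The groups covered nearly the same range, and the difference was -0.01 ± 0.36 (SE, limma adjusted p 0.989), with an interval of -0.86 to 0.83. It turned to 0.26 without Dnmt3a-deleted replicate 3 and to 0.30 without control replicate 2. A second, dim probe, above background on 3 arrays, differed by 0.25.

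Slc9a2 had 3 probes. The brightest gave 9.77, 10.30 and 9.24 in deleted mice, against 10.24, 9.72 and 9.73 in controls, a difference of -0.13 ± 0.29 (SE, limma adjusted p 0.875) with an interval of -0.80 to 0.54. It turned to 0.14 without Dnmt3a-deleted replicate 3 and to 0.044 without control replicate 1. The second gave 8.11, 8.10 and 7.71 in deleted mice, against 8.70, 8.46 and 8.45 in controls. Its groups did not overlap, as for 14.4% of all 21183 probes, and its difference was -0.56 ± 0.18 (SE, unadjusted p 0.0150, limma adjusted p 0.700). The third gave 7.20, 8.03 and 4.79 in deleted mice, against 7.85, 7.77 and 7.73 in controls, where 4.79 was not above background. Its difference of -1.11 was -0.17 without Dnmt3a-deleted replicate 3, so the 3 probes of Slc9a2 share a sign over all mice but not an order of mice.

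Aqp8, a water channel of the surface colonocyte, stood at 12.29, 11.37 and 11.35 in deleted mice, against 12.23, 10.55 and 11.57 in controls. Here control replicate 2, the highest mouse for the sodium channel subunits, was the lowest, and the groups overlapped. The difference was 0.22 ± 0.44 (SE, limma adjusted p 0.859), with an interval of -0.79 to 1.23, and turned to -0.23 without control replicate 2 and to -0.091 without Dnmt3a-deleted replicate 1. The second probe gave 12.30, 11.41 and 10.68 in deleted mice, against 12.08, 10.53 and 11.66 in controls, and a difference of 0.04 (limma adjusted p 0.981). Control replicate 2 was the lowest mouse on both probes.

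**Figure D4:**
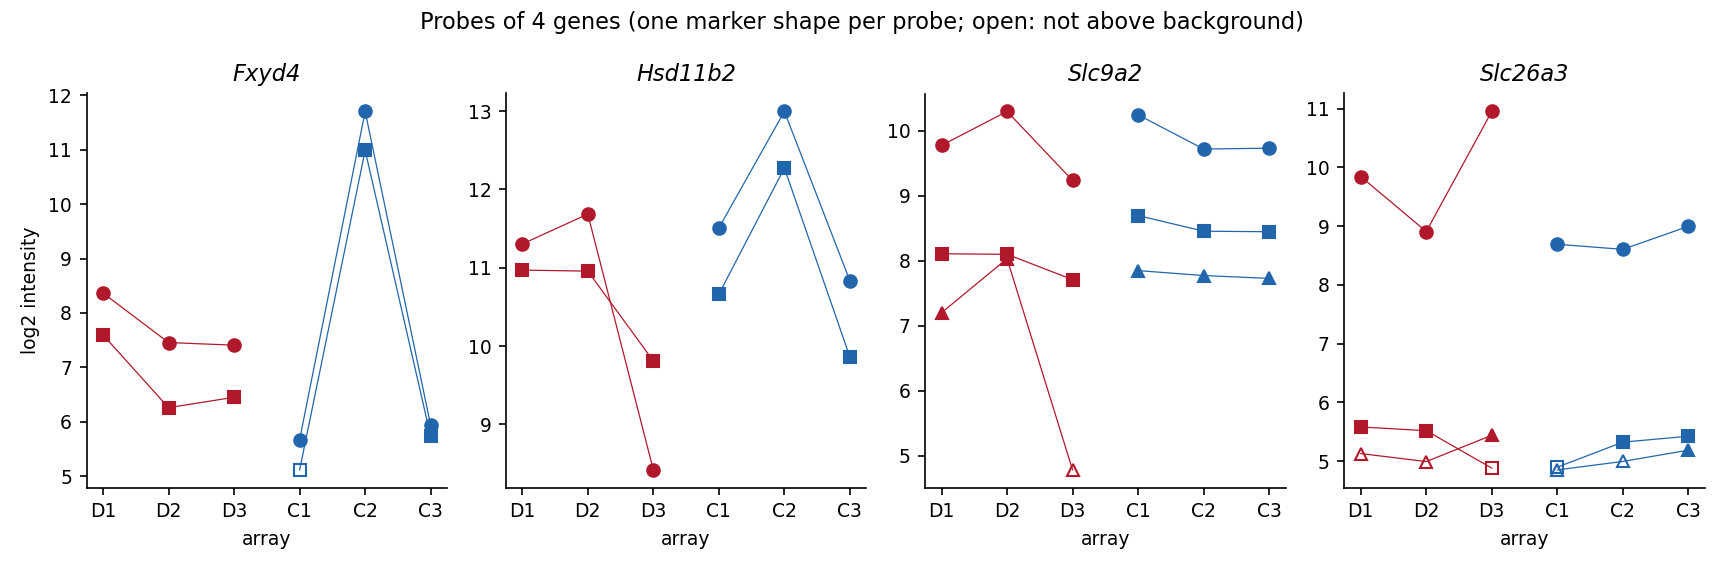
Log2 intensity of each probe (1 marker shape per probe, open where not above background) of Fxyd4, Hsd11b2, Slc9a2 and Slc26a3 in Dnmt3a-deleted replicates D1 to D3 (red), left of control replicates C1 to C3 (blue). Both Fxyd4 probes and both Hsd11b2 probes place control replicate 2 first, and the Hsd11b2 probes disagree on Dnmt3a-deleted replicate 3 (8.42 and 9.81).

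Other genes of the same transport were taken in 5 lists, and 0 of them passed an adjusted p under 0.05. Of the 16 genes that respond to mineralocorticoids or control the sodium channel, all 16 were measured. Of these 3 were higher and 13 lower, where 4735 of all 11370 genes were lower. None reached an unadjusted p under 0.05 in the limma fit, and the median difference was -0.16, against 0.06 over all genes. The mineralocorticoid receptor gene Nr3c2 differed by -0.26, the glucocorticoid receptor gene Nr3c1 by -0.37, the scaffold gene Cnksr3 by 0.48, the clock gene Per1 by -0.42 and Sgk1 by -0.64, with limma adjusted p of 0.700 to 0.805. Of 12 measured sodium pump subunits and sodium-coupled transporters of 16, 6 were higher and 6 lower, with a median of 0.04. Fxyd5, another pump regulator, stood at 6.24, 6.48 and 6.74 in deleted mice, against 6.76, 7.38 and 7.40 in controls. It was lower in all 3 deleted mice, by -0.69 ± 0.23 (SE, unadjusted p 0.0174, limma adjusted p 0.700). Slc4a4, the sodium/bicarbonate cotransporter of the basolateral membrane, stood at 9.40, 9.25 and 10.58 in deleted mice, against 9.05, 8.96 and 9.07 in controls, with a difference of 0.72 and a limma adjusted p of 0.700. Slc9a8 and Slc9a4, exchangers of the Slc9 family, differed by -0.55 and 0.25.

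Of 13 measured anion channels and exchangers of 14, 7 were higher and 6 lower, with a median of 0.07. Clca1, a goblet cell protein that modulates chloride channels, stood at 13.74, 13.06 and 13.70 in deleted mice, against 12.68, 11.87 and 10.91 in controls. The groups did not overlap, and the difference was 1.68 ± 0.42 (SE, unadjusted p 0.00434, limma adjusted p 0.700). Over 9 of 10 goblet cell markers the summed linear intensity was 78929 to 92943 in deleted mice, against 61329 to 77117 in controls. Clca1 is itself part of that sum, so the sum is not separate from its difference. The sum was not taken without Clca1, so it does not show a gap between the groups in the other markers. Groups did not overlap in 2 of the 9 markers, Clca1 and Zg16, against 14.5% of all genes. The part of goblet cells in these values was not tested. The sulfate exchanger Slc26a2 differed by -0.56, Slc26a9 by -0.48 and the chloride/proton exchanger Clcn3 by 0.33. The other aquaporins, 5 measured of 10, had a median of -0.02, with Aqp1 at -0.65, Aqp11 at -0.51, Aqp4 at 0.41 and Aqp3 at 0.06. Of 10 measured scaffold and signal genes of 12, 5 were higher and 5 lower. Prkg2, the kinase through which guanylin signalling acts on transport, stood at 7.32, 8.25 and 6.47 in deleted mice, against 8.54, 8.62 and 8.12 in controls, a difference of -1.08 ± 0.41 (SE, unadjusted p 0.0304, limma adjusted p 0.700). The guanylin receptor gene Gucy2c, the hormone gene Guca2b and the peptide receptor gene Vipr1 differed by -0.39, -0.43 and 0.27.

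The genes whose profile over the 6 mice was most like the mean of Scnn1b and Scnn1g were Cavin3, Atp5k, Dmkn, Pcdhb4 and Knop1, with Pearson r of 0.994, 0.989, 0.987, 0.985 and 0.964. Over the other 5 mice, without control replicate 2, r was 0.971, 0.942, 0.927, 0.921 and 0.982. The points share their arrays and number only 6, and 11 genes had an r over 0.95. Cavin3 stood at 5.59, 5.52 and 5.77 in deleted mice, against 5.53, 6.31 and 5.39 in controls, a range under 1 log2 unit. Dmkn, Pcdhb4 and Knop1 likewise ranged over less than 1 log2 unit. Cavin3, Dmkn and Pcdhb4 were also dim, with Dmkn at 5.23 to 5.71 and Pcdhb4 at 5.53 to 5.97. Most like Aqp8 were Usp30, Col11a1, Krt15, Scarb1 and Mutyh, with r of 0.994, 0.976, 0.975, 0.968 and 0.962. Each of these 5 also ranged over less than 1 log2 unit, and Col11a1, Krt15, Scarb1 and Mutyh were dim. Col11a1 ranged from 5.51 to 5.67 and Mutyh from 4.98 to 5.76, where Aqp8 ranged from 10.55 to 12.29.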

How the data were processed

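Colon mucosa RNA of 3 Dnmt3a-deleted and 3 control mice was hybridised to 1 array each. The deposited table holds a signal intensity per probe, unnormalized, with a deposited detection p-value beside it, which was small for probes above and below background alike. Detection was therefore called at p under 0.05 only for signals above the array's background, which was the median over probes whose p exceeded 0.97. The authors also deposited processed intensities, linear and not centred, whose normalization is not given in the sources used here, with column medians of 93.3, 93.1 and 94.8 in Dnmt3a-deleted replicates 1 to 3 and 93.2, 93.3 and 92.9 in control replicates 1 to 3. They served as an alternative.

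Intensities were corrected here with normexp (offset 16), quantile normalized and taken to log2 with limma 3.58.1 in R 4.3.3. Probes detected on at least 3 of 6 arrays were kept, 21183 of 45135. Probes were named through the platform annotation, with symbols brought up to date from RefSeq: 34773 had 1 symbol, 18 had several and 10344 were unnamed here. A gene was its brightest kept probe. Groups were compared with lmFit and eBayes, 2-sided, adjusted by Benjamini-Hochberg over 11370 genes, or over all kept probes for single probes. The fit was tested on simulated data, drawn independently for each gene and array. That simulation held no array that stands apart and no genes that move together, so it does not cover those features of these data. With 3 arrays per group their number limits the precision, and an exact permutation test cannot go below p = 0.1.

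The 10 genes and the lists were chosen with earlier results of these data known. From each list the 4 genes of smallest p were named, besides every one of the 10 genes and the 5 genes most like each of 2 profiles, and other genes are said to be chosen after their values were seen. Of these, Nr3c2 was added after its value was seen. Replicate numbers were not taken as pairs, since each sample is a different animal and the labels name no pairs. Over all kept probes, deviations of same-numbered mice from their group means correlated at -0.131, -0.0967 and 0.0294. These values cannot exclude a shared litter or batch. Alternatives changed the background correction, normalization, filter, probe rule, moderation, weights and covariates, and left out arrays. The file headers name no genome build, and promoter sequences are from RefSeq.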

Additional observations from a re-analysis of the deposited data

How the results depend on the processing

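None of the 10 genes passed an adjusted p under 0.05 in the limma fit or in any of 20 alternatives, with 1 at an unadjusted p under 0.05 in the limma fit and 0 to 4 in the alternatives; the lowest adjusted p was 0.0961, for Slc26a3. The differences of Slc26a3, Atp12a and Scnn1a were above 0 under all 20, at 0.61 to 1.63, 0.51 to 1.598 and 0.043 to 0.56 with 1 mouse left out. Signs turned for Scnn1b with neqc (0.031) and with sex as a term (0.26), for Fxyd4 with neqc (0.16), array weights (0.89) and sex (0.41), for Slc9a3 with the mean of its probes (0.12) and with array weights (0.027), and for Aqp8 with sex (-0.055). Leaving out 1 mouse at a time gave -0.76 to 1.01 for Scnn1b, -0.81 to 0.57 for Scnn1g, -0.39 to 0.14 for Slc9a2, -0.30 to 0.30 for Slc9a3, -1.08 to 1.94 for Fxyd4, -0.23 to 0.61 for Aqp8 and -1.92 to -0.28 for Hsd11b2. Leaving out Dnmt3a-deleted replicate 3 and control replicate 2 together, a choice made after seeing the data, gave 0.75 for Scnn1b, 0.40 for Scnn1g, 0.047 for Slc9a2, 0.58 for Slc9a3, 2.11 for Fxyd4, -0.070 for Aqp8 and 0.32 for Hsd11b2, and a median of 0.55. The median of the 10 genes was -0.26 to 0.56, and their median control SD 0.36 to 0.82, with 1 mouse left out.

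Of all genes, 1 passed in the limma fit, against 0 with no background correction, 15 with array weights and 0 to 1 with 1 mouse left out. Of all probes 1 passed, against 0 with no background correction, with the authors' values and with median scaling, 8 with array weights and 0 to 1 with 1 mouse left out. With the replicate number as a block 0 of the 10 genes and 1 of all genes passed, and the median difference was -0.02. The SE was then 0.18 for Slc9a3, 0.41 for Hsd11b2 and 0.25 for Aqp8, against 0.36, 0.88 and 0.44 without the block. For Scnn1a it was larger, at 0.30 against 0.29. Scnn1g had no value when detection on all 6 arrays was asked for. A slide block was not run, since the files used here give no slides. The cause of these changes was not tested. Scnn1g, with control replicate 1 not above background, and the dim probes of Slc26a3 and Slc9a3 are limited by signal over background.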
